A study of Mus musculus with 4 samples.

Results

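Probe sets that the platform annotation assigns to more than 1 gene were compared between SRC-3 knockout (KO) and wild-type (WT) hematopoietic cells. A probe set is a group of short array probes summarised into 1 value. Of 41345 probe sets in the table, 25335 were listed in the annotation, and 1814 of these carried several gene symbols and several gene identifiers, which is 4.39% of all probe sets and 7.16% of the annotated ones. The other annotated probe sets, 23521 in number, named 1 gene, and 16010 were not listed. RNA was taken from LSK cells (lineage-negative, Sca1-positive and c-Kit-positive), a bone marrow population that includes the blood-forming stem cells and early progenitors. They were sorted from bone marrow of male mice aged 8 weeks, either WT (2 samples) or lacking SRC-3 (2 samples), with no treatment named. SRC-3 is the product of Ncoa3 and helps nuclear receptors and further transcription factors to activate their target genes. Each sample was hybridised to 1 array. The labels call the samples of a genotype biological replicates without saying how many mice each held, and if they are not separate animals, the p-values here reflect technical spread alone. The labels do not state the strain or how the knockout was made.

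A probe set is assigned to several genes for one of a few reasons. Gene families that arose by recent duplication, such as histones, globins and interferon-induced GTPases, can be so alike that the same probes match several copies. Processed pseudogenes, which are reverse-transcribed copies of abundant messenger RNAs, share the sequence of their parent gene. MicroRNAs and small nucleolar RNAs (snoRNAs) are often encoded inside the introns of host genes, and some neighbouring genes overlap on opposite strands. In all these cases the value belongs to the entry as a whole, and the genes in it cannot be told apart. In bulk RNA, fewer cells of a type and less RNA per cell cannot be told apart either.

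Most entries were short. There were 1140 members with 2 genes, 241 with 3 and 433 with 4 or more, up to 20 genes in 2 members. In 4 members 1 symbol stood under 2 identifiers. Together they named 2726 gene symbols, and only 33.9% of the 2732 gene identifiers had a probe set of their own. By kind, 519 members held 1 named gene with unnamed gene models (symbols starting Gm or ending Rik), and 478 held other mixtures of named genes. A further 415 held named genes of 1 family, 208 unnamed gene models only, 131 a small RNA gene with another gene, and 63 small RNA genes only. In 200 members the genes lay on more than 1 chromosome, and in 565 their spans overlapped, by the RefSeq annotation of GRCm38.p6. The members on more than 1 chromosome were the brightest of these groupings, with a median log2 level of 7.14 against 3.94 over all probe sets and 4.33 over all members.

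The sequences of the microRNA entries show in what sense the genes of an entry are alike. RefSeq held 113 of the 145 microRNA genes named by members, with 187 mature sequences and 168 different seeds (bases 2 to 8, the part that pairs with target messenger RNAs). The Mir24-1/Mir3074-1 entry, which has 2 probe sets, is a pair of genes on opposite strands of the same stretch of chromosome 13. The hairpins are shown because every base of the shorter one is the reverse complement of part of the longer one, marked in capitals.
Mir24-1 hairpin: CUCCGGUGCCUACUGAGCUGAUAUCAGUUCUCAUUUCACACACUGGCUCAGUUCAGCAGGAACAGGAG
Mir3074-1 hairpin: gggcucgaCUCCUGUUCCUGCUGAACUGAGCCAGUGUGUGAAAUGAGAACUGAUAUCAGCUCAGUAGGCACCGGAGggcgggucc
The Mir24-1 hairpin has 68 bases and the Mir3074-1 hairpin 85. Mir24-2 and Mir3074-2 on chromosome 8 stand in the same relation over 83 bases, and Mir338 and Mir3065 on chromosome 11 over 87 bases. Mir465c-1 and Mir465c-2, by contrast, are copies of 1 hairpin of 81 bases that is identical throughout. The mature microRNAs below belong to the members described later, with the seed in capitals.
miR-24-3p: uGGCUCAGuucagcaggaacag
miR-24-1-5p: gUGCCUACugagcugauaucagu
miR-3074-5p: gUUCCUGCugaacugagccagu
miR-338-3p: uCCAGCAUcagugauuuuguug
miR-3065-5p: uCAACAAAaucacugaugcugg
miR-568: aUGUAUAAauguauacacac
miR-5101: uUUGUUUGuuuugcugaugcag
miR-1249-3p: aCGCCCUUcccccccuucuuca
The seeds of miR-24-3p and miR-3074-5p differ although their hairpins come from the same DNA, because each is read from its own strand.

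Over all 1814 members, 3 passed the test at an adjusted p of 0.05 (limma, Benjamini-Hochberg over all 41345 probe sets), all lower in KO. No member passed in the other direction. Among all probe sets 0.0411% passed with a lower KO value and 0.0242% with a higher one. At an unadjusted p of 0.05, 98 members were lower and 195 higher, against 9.27% and 7.3% of all probe sets. A looser rule asked for a change of 1.5-fold or more together with an unadjusted p below 0.01, and 38 members met it as lower and 64 as higher, against 3.61% and 2.3% of all probe sets. These are 2.09% and 3.53% of the members, so the lower share was under that of all probe sets and the higher share above it. Single-gene probe sets had 1.31% lower and 2.76% higher, so both shares of the members lay above theirs. Unlisted probe sets had 7.16% lower and 1.47% higher. The 38 lower members held only 26 different sets of values, since several members repeated the same 4 numbers. Both KO arrays lay above both WT arrays in 579 members (22.0% of all probe sets) and below both in 378 (26.0% of all probe sets). The median difference, KO minus WT, was 0.05 on the log2 scale over the members, 0.00 over single-gene probe sets, -0.09 over unlisted probe sets and -0.03 over all (0.03 after the arrays were quantile-normalized again).

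The 3 calls rested on the choice of model. None of them passed without the intensity trend of the model, where 15 probe sets of the table passed as higher and 16 as lower. A fit that leaves out 1 array keeps only 1 array of a genotype, so such fits cannot show whether these calls hold. When only the 25335 annotated probe sets were fitted, 101 of them passed as higher and 30 as lower. Among the members 9 passed as higher and 4 as lower. The 9 were the probe sets of Tomm5/Gm8069 (log2 difference 1.36), Mrpl41/Dph7 (1.35), Gstm5/4933431E20Rik (1.46), Ifi211/Ifi204 (2.11), Serpinb10/Serpinb2 (1.31), Gm4841/BC023105 (2.29) and 3 of Tcte3/Gm3448/Gm3417 (1.60 to 2.08).

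All 3 called members were immunoglobulin entries. Immunoglobulin heavy and kappa light chain genes are assembled in B lineage cells by joining variable (V), joining (J) and constant segments, and unrearranged segments can also be transcribed in early progenitors. The Igkv9-124/Igkv4-70 probe set, which covers kappa V segments, read 11.89 and 11.83 on the WT arrays and 9.87 and 9.92 on the KO arrays. The groups did not overlap, and the probe set fell by 1.97 on the log2 scale (SE 0.11, adjusted p = 0.031), a 3.91-fold difference. The Ighg3/Ighv1-47/Ighm probe set covers constant segments of the IgG3 and IgM heavy chains with a heavy V segment. It read 10.63 and 10.53 in WT and 8.80 and 8.78 in KO, and fell by 1.79 (SE 0.13, adjusted p = 0.048). The third, Igkv4-53/Igkj1/Igkv6-23, joins kappa V segments with a J segment. Its values were 12.17 and 12.22 in WT and 10.79 and 10.86 in KO, so it fell by 1.37 (SE 0.10, adjusted p = 0.049).

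The other immunoglobulin members lay on both sides of the WT values, and none of them passed the test. Ighv1-54/Igkv1-135/Ighm, which also names the IgM constant region, read 8.70 and 9.02 in WT and 9.86 and 9.85 in KO, a difference of 1.0 (SE 0.16, adjusted p = 0.11). Ighv1-72/Ighm read 6.74 and 6.35 in WT and 5.44 and 5.74 in KO, a difference of -0.96 (SE 0.23, adjusted p = 0.16). So 3 entries that all name Ighm included values on both sides of the WT arrays, with no overlap between genotypes in any of them. The T cell receptor entry A430107P09Rik/Trav3n-3 overlapped between genotypes, with a difference of 0.25 (SE 0.21). Over the 6 members of this list the median difference was -1.16, and over 51 single-gene probe sets of immunoglobulin and T cell receptor segments it was -0.26.

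Probe sets with 1 immunoglobulin gene did not follow the members closely. Igkv9-124 alone was dim, at 1.40 and 1.30 in WT and 1.64 and 1.32 in KO. Igkv4-70 alone read 6.02 and 5.85 in WT and 5.42 and 5.43 in KO, a difference of -0.51 (SE 0.18). Igkv6-23 and Igkj1 had differences of 0.00 (SE 0.25) and 0.06 (SE 0.30). The 7 single-gene probe sets of Ighm ranged from 0.45 down to -2.31. The lowest of them read 6.71 and 6.82 in WT and 4.42 and 4.49 in KO (adjusted p = 0.052), while the brightest, at 11.75 and 11.21 in WT and 11.11 and 11.17 in KO, differed by -0.34 (SE 0.20). For other B cell genes, 5 of 6 listed markers had their own probe set and 1, Cd79b, lay above the median probe set. Their differences ran from -0.42 for Cd79a to 0.27 for Cd79b, and at the levels of the other 4 array values are compressed.

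Interferon-inducible families held several of the larger higher values. These genes are switched on by interferons and encode proteins that restrict viruses and intracellular microbes. Among 16 members of such families, 6 met the looser rule as higher and 1 as lower, against 2.3% and 3.61% of all probe sets. Both KO arrays lay above both WT arrays in 10, or 62.5%, against 22.0% of all probe sets. The median difference was 0.28, against 0.21 over 104 single-gene probe sets of the same families and -0.03 over all probe sets. None passed at an adjusted p of 0.05 in the fit to all probe sets.

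Ifi211 and Ifi204 encode PYHIN proteins, a family of nucleic acid sensors. Their shared probe set read 7.62 and 8.55 in WT and 10.18 and 10.20 in KO, a difference of 2.11 (SE 0.32, adjusted p = 0.11), or 4.30-fold. The probe set of Ifi204 alone differed by 3.09 (SE 0.25, adjusted p = 0.052), from 2.76 and 3.29 in WT to 6.06 and 6.16 in KO. Tgtp1 and Tgtp2 encode near-identical immunity-related GTPases and shared 2 probe sets. The brighter one read 5.81 and 6.36 in WT and 7.68 and 7.49 in KO, a difference of 1.5 (SE 0.25, adjusted p = 0.11). In the dimmer one the values were 4.22 and 3.04 in WT and 6.00 and 5.42 in KO, a difference of 2.08 (SE 0.45, adjusted p = 0.14). Both Tgtp probe sets thus separated the genotypes on all 4 arrays, and the dimmer one spread more between the WT arrays.

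Guanylate-binding proteins are a further family of interferon-induced GTPases. The Gbp2/Gbp2b probe set read 6.17 and 6.20 in WT and 7.43 and 7.29 in KO, a difference of 1.17 (SE 0.17, adjusted p = 0.10), and Gbp2b alone differed by 1.81 (SE 0.21, adjusted p = 0.079). Olfr56/Ifi47 pairs an olfactory receptor gene with an immunity-related GTPase gene. It read 6.95 and 7.21 in WT and 8.30 and 8.31 in KO, a difference of 1.22 (SE 0.18, adjusted p = 0.10). Oas1a/Oas1g, which encode oligoadenylate synthetases that sense double-stranded RNA, differed by 0.82 (SE 0.19, adjusted p = 0.15), and Ifi27l2a/Ifi27l2b by 0.99 (SE 0.28, adjusted p = 0.19). Of the 16 members 5 had a lower KO mean, and the 1 that met the looser rule as lower was Trim12c/Trim5, relatives of the retroviral restriction factor TRIM5. One of its probe sets read 5.98 and 6.22 in WT and 5.11 and 4.13 in KO, a difference of -1.48 (SE 0.36, adjusted p = 0.16), while the other differed by 0.13 (SE 0.18). The interferon alpha entry Ifna5/Ifna6 overlapped between genotypes, at 4.04 and 4.04 in WT and 2.57 and 4.16 in KO.

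An entry of gene models, Gm4841/BC023105, had the smallest p among the higher members. It read 3.34 and 3.55 in WT and 5.63 and 5.85 in KO, a difference of 2.29 (SE 0.20, adjusted p = 0.057). The probe set of Gm4841 alone rose by 3.85 (SE 0.28, adjusted p = 0.048), from 2.94 and 3.26 to 7.25 and 6.65. BC023105 alone differed by 1.07 (SE 0.21, adjusted p = 0.13). Markers of macrophages and dendritic cells, cells that also express interferon-inducible genes, had a median difference of 0.15 over 7 genes. Their mean level was 5.97 and 5.78 in WT and 6.27 and 6.35 in KO, but the list was split. By the looser rule 2 of the 7 were higher and 0 lower. H2-Aa differed by 1.73 (SE 0.18, adjusted p = 0.073), while H2-Eb1 differed by 1.48 (SE 0.18, adjusted p = 0.083). The rest of the list ran from -0.26 (SE 0.21) for Cd68 to 0.18 (SE 0.26) for Csf1r. The part of macrophages and dendritic cells in the interferon values was not tested.

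The promoters of these genes are shown to set the start regions of genes that share an entry side by side. Each is 300 bases of RefSeq GRCm38.p6, from 250 before the gene's start to 50 after it. Capitals mark a motif searched on both strands, GAAANNGAA, the core of the interferon-stimulated response element. Of 32851 mouse promoters of this length, 8.56% hold it. Tgtp1 lies at chr11:48992197-48992496, minus strand, and Tgtp2 at chr11:49064163-49064462, minus strand.
Tgtp1: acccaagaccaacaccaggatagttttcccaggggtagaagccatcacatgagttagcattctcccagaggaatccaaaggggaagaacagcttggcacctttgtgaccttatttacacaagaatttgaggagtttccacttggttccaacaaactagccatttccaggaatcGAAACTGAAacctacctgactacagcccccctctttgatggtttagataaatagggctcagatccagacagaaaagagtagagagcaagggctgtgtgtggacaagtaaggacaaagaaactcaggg
Tgtp2: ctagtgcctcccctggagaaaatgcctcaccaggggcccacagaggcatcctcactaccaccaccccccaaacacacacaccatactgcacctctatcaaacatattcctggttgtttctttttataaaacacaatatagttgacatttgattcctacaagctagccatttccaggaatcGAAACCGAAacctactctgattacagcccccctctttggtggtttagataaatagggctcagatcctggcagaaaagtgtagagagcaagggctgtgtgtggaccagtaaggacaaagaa
Each holds 1 match to the motif, and the windows are 67.7% identical. Gbp2 lies at chr3:142620413-142620712, plus strand, and Gbp2b at chr3:142594597-142594896, plus strand.
Gbp2: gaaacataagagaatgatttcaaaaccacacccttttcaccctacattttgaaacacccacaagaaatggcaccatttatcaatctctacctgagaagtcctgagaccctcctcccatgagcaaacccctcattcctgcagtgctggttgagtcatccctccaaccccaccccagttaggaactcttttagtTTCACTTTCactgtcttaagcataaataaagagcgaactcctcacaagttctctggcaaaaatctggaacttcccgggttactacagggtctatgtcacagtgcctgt
Gbp2b: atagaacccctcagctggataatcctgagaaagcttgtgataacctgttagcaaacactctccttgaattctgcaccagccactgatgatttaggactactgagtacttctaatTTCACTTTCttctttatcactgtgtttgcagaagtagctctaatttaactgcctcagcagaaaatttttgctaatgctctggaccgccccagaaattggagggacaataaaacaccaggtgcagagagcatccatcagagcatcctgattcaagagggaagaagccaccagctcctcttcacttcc
These windows are 49.6% identical, and each holds 1 match to the motif. Ifi211 lies at chr1:173912997-173913296, minus strand.
Ifi211: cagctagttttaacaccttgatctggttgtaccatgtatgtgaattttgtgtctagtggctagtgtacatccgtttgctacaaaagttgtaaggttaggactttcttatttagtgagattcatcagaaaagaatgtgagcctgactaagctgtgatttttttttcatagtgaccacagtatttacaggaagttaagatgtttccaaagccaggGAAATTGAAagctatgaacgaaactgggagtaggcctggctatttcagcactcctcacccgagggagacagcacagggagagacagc
It holds 1 match to the motif. Oas1a and Oas1g are 85.3% identical over their windows and hold 2 overlapping matches each to the motif. No match was found in the windows of Ifi47 and Olfr56. A match is a description of the letters and does not show binding.

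No entry with a gene for mitochondrial translation or respiration passed the test. Of 32 such members 27 (84.4%) had a higher KO mean, against 46.3% of all probe sets. By the looser rule 7 (21.9%) were higher and 0 lower, against 2.3% and 3.61% of all probe sets, and both KO arrays lay above both WT arrays in 23 (71.9%, against 22.0%). The median difference was 0.45, close to the 0.53 over 256 single-gene probe sets of the same kind. Tomm5 encodes a small subunit of the translocase of the outer mitochondrial membrane, and Gm8069 is an unnamed gene model. Their brighter probe set read 8.75 and 8.91 in WT and 10.20 and 10.19 in KO, a difference of 1.36 (SE 0.14, adjusted p = 0.073). A second one read 5.07 and 6.08 in WT and 7.94 and 7.55 in KO, a difference of 2.17 (SE 0.38, adjusted p = 0.12). Both separated the genotypes.

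Mrpl41, a mitochondrial ribosomal protein gene, shares a probe set with its neighbour Dph7, a diphthamide synthesis gene. It read 5.89 and 6.14 in WT and 7.38 and 7.37 in KO, a difference of 1.35 (SE 0.19, adjusted p = 0.098), and Dph7 alone differed by 0.49 (SE 0.23). Mrpl53/Ccdc142 differed by 0.89 (SE 0.16, adjusted p = 0.12), from 7.55 and 7.71 to 8.53 and 8.52. A dimmer probe set of that entry, at a mean level of 5.72, differed by 0.17. Among respiratory chain entries, Ndufs5-ps/Ndufs5, a complex I subunit with its pseudogene, read 6.03 and 6.66 in WT and 7.86 and 7.64 in KO, a difference of 1.41 (SE 0.27, adjusted p = 0.13). The probe set of Ndufs5 alone was dimmer, at 3.26 and 3.45 in WT and 3.49 and 3.43 in KO, a difference of 0.10 (SE 0.18). Uqcr10/Gm6293, a complex III subunit with a gene model, differed by 1.07 (SE 0.22, adjusted p = 0.14). The 3 copies of the complex I subunit Ndufb4 shared a probe set that differed by 0.92 (SE 0.25, adjusted p = 0.19). On the first probe set given for each of these entries, the KO arrays lay above the WT arrays.

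Genes that lie head to head, on opposite strands with starts within 1 kb, made up 78 of the members. Such pairs often share a promoter region that is read in both directions. Their median difference was 0.21, with 8 (10.3%) higher and 0 lower by the looser rule (2.3% and 3.61% of all probe sets), and both KO arrays above both WT arrays in 42.3% of them (22.0% of all probe sets). Opposite-strand pairs with starts farther apart numbered 205 and had a median of 0.07, and 169 same-strand pairs a median of -0.02 (0.05 after quantile normalization). By the looser rule 3.41% of the farther pairs were higher and 0.488% lower, and 6.51% and 0.592% of the same-strand pairs. Both KO arrays lay above both WT arrays in 31.7% and 23.1% of them. For single-gene probe sets at or above the median probe set these shares were 4.65% higher, 1.99% lower and 32.5%. Head-to-head pairs were also brighter than same-strand ones, with median levels of 5.33 and 4.80. The part of level in this order was not tested. Plekhj1/Sf3a2 joins a pleckstrin homology domain gene with a subunit of the splicing factor SF3a. It read 7.92 and 7.73 in WT and 8.62 and 8.69 in KO, a difference of 0.83 (SE 0.16, adjusted p = 0.13). Oip5/Nusap1, genes of centromere assembly and of the mitotic spindle, differed by 1.28 (SE 0.28, adjusted p = 0.14). Oxnad1/Dph3 differed by 0.78 (SE 0.18, adjusted p = 0.15), and the nuclear-encoded mitochondrial entries Chchd1/6230400D17Rik by 0.83 (SE 0.20), Romo1/Nfs1 by 0.76 (SE 0.22) and Mrpl43/Twnk by 0.88 (SE 0.29). Rasal3/A530088E08Rik went the other way, with a difference of -0.61 (SE 0.18, adjusted p = 0.21).

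The window of Sf3a2 is shown as an example, since it holds the starts of both genes. It lies at chr10:80798485-80798784 of GRCm38.p6 on the plus strand, with CG dinucleotides in capitals. The Sf3a2 start is base 251 and the Plekhj1 start, on the other strand, is base 142.
Sf3a2: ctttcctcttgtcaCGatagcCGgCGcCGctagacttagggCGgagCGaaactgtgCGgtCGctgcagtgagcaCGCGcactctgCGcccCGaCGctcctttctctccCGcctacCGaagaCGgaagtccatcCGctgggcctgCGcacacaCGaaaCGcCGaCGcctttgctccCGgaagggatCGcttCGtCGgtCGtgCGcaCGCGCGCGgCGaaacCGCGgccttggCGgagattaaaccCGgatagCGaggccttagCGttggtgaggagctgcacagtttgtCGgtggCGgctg
It holds 41 CG dinucleotides, and 65.0% of its bases are G or C. Over the 136 promoter windows of head-to-head members the median was 22.0 CG dinucleotides and 62.8% G or C, against 7.0 and 52.7% over all promoters.

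Most histone genes lie in clusters of copies that encode nearly the same protein. The clustered genes supply the chromatin of newly replicated DNA and are expressed mostly in S phase, which does not hold for every gene of the list, such as H3f3b. Of 45 histone members 37 (82.2%) had a higher KO mean, against 46.3% of all probe sets. By the looser rule 4 (8.89%) were higher and 0 lower, against 2.3% and 3.61%, and the median difference was 0.28. The 36 single-gene histone probe sets had a median of 0.41. An entry of 10 H2A genes led by H2ac8 read 4.43 and 4.45 in WT and 5.61 and 5.31 in KO, a difference of 1.02 (SE 0.20, adjusted p = 0.13). The entry of 8 H3 genes led by H3c15 differed by 0.98 (SE 0.20, adjusted p = 0.14), and H3f3b with its relatives by 0.85 (SE 0.18, adjusted p = 0.14). Each of these values is from 1 of several probe sets of its entry. Over 7 probe sets the H2A entry ranged from 0.03 to 1.73, with the brightest at 0.03. Over 8 probe sets the H3 entry ranged from -0.2 to 0.98. Over 5 probe sets the H3f3b entry ranged from -0.14 to 0.85, with 3 of them lower in KO. The brightest member entry was also one of histones. H2ac18/H2ac19/H2ac20 read 12.82 and 12.69 in WT and 12.83 and 12.81 in KO, a difference of 0.06 (SE 0.09), at the upper end of the table, where array values are compressed.

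Members with a cytosolic ribosomal protein gene often name it together with its pseudogenes or gene models. Ribosomal protein messenger RNAs are among the most abundant in a cell and have many processed copies. Of 57 such members 43 (75.4%) had a higher KO mean, against 46.3% of all probe sets. By the looser rule 4 (7.02%) were higher and 1 (1.75%) lower, against 2.3% and 3.61%, and the median difference was 0.31 (0.18 over 116 single-gene probe sets). Rpl13/Rpl13-ps6 read 5.34 and 5.10 in WT and 6.21 and 6.54 in KO on 1 probe set, a difference of 1.16 (SE 0.22, adjusted p = 0.13). On a brighter probe set of the same entry the values were 9.72 and 10.08 in WT and 10.46 and 10.39 in KO, a difference of 0.53 (SE 0.16). The entry of Rps13 with Gm15483 and Rps13-ps4 was the 1 lower by the looser rule, at 10.34 and 11.0 in WT and 8.80 and 9.48 in KO, a difference of -1.53 (SE 0.32, adjusted p = 0.14). A second probe set of that entry differed by -0.25 (SE 0.24), and the probe set of Rps13 alone by -0.19 (SE 0.11). The entry Snord14a/Rps13 differed by 0.09. Of these probe sets that name Rps13, only the first differed by 1.5-fold or more.

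Of the gene groups listed, microRNA entries had the most members lower by the looser rule. Of 138 members naming a microRNA gene 46 (33.3%) had a higher KO mean, against 46.3% of all probe sets. By the looser rule 18 were lower and 1 higher, against 3.61% and 2.3%, and the median difference was -0.21. Single-gene microRNA probe sets, 512 in number, had a median of -0.07. The 12 probe sets of Mir669a-1/Mir669a-2/Mir669a-3 carried the same 4 values, 2.0 and 2.34 in WT and 1.27 and 1.40 in KO, and so count as 1 measurement with a difference of -0.83 (SE 0.18, adjusted p = 0.14). With each set of values counted once, 24 microRNA-only members had a median of -0.27, and 4 met the looser rule as lower. Most of these readings were dim, at a median level of 3.13. An array of this kind detects precursor or host transcripts rather than the mature microRNA alone.

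Both probe sets of Mir24-1/Mir3074-1, the overlapping pair shown above, were lower in KO. They read 3.21 and 3.11 in WT and 2.46 and 2.26 in KO (difference -0.81, SE 0.17, adjusted p = 0.14), and 3.82 and 3.37 in WT and 2.94 and 2.53 in KO (difference -0.86, SE 0.25, adjusted p = 0.20). Mir338/Mir3065 differed by -0.57 (SE 0.21) and -0.52 (SE 0.25) on its 2 probe sets. In contrast, the groups overlapped on both probe sets of Mir24-2/Mir3074-2, the second locus that encodes miR-24-3p, with differences of -0.79 (SE 0.57) and -0.26 (SE 0.25). The identical copies Mir465c-1/Mir465c-2 were near the floor at 1.18 and 1.41 in WT and 1.32 and 1.38 in KO. Mir1b/Mir1a-2, muscle microRNA genes, read 5.66 and 5.92 in WT and 4.88 and 4.54 in KO, a difference of -1.08 (SE 0.22, adjusted p = 0.14). Mir466d/Mir466n read 5.57 and 5.05 in WT and 4.14 and 4.26 in KO, a difference of -1.11 (SE 0.24, adjusted p = 0.14).

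Where a microRNA shared its entry with a protein-coding host, the value could be set beside the host's own probe set. Mir568/Zbtb20 read 6.31 and 6.38 in WT and 5.17 and 5.03 in KO, a difference of -1.25 (SE 0.18, adjusted p = 0.10). Zbtb20, a zinc finger repressor gene, differed by -1.5 (SE 0.19, adjusted p = 0.091) on its own probe set, from 7.34 and 7.21 to 5.90 and 5.65. Syne2/Mir5101, with the gene of a nuclear envelope spectrin protein, read 5.24 and 4.95 in WT and 4.16 and 4.12 in KO, a difference of -0.95 (SE 0.20, adjusted p = 0.14). Ddx5/Mir3064 differed by -0.52 (SE 0.16), and Ddx5, an RNA helicase gene, by -1.02 (SE 0.52) alone. Mir1249/5031439G07Rik read 3.63 and 3.68 in WT and 2.83 and 2.80 in KO, a difference of -0.84 (SE 0.17, adjusted p = 0.13). The probe set of 5031439G07Rik alone differed by only -0.11 (SE 0.28). Vmp1/Mir21a differed by -0.23, and Vmp1 alone by 0.53 (SE 0.25), with the opposite sign. Among 66 members that join a small RNA gene with another gene and had a single-gene probe set, 49 (74.2%) had the same sign on both. That count includes 16 probe sets of the snoRNA entry Gm26504/Snord116l1/Snord116l2, which repeat the same values and so count 1 agreement 16 times. Over all 1142 members with a single-gene probe set the share was 62.0%. Of the 89 members that join a microRNA gene with another gene, 36 (40.4%) had a higher KO mean, against 46.3% of all probe sets. By the looser rule 3 (3.37%) were lower and 1 (1.12%) higher, against 3.61% and 2.3% of all probe sets. The higher one was Cd74/Mir5107, which joins the invariant chain of MHC class II with a microRNA gene. It read 8.04 and 8.14 in WT and 8.85 and 8.90 in KO, a difference of 0.78 (SE 0.15, adjusted p = 0.13).

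SnoRNA entries, with genes that guide the modification of ribosomal RNA, had a median difference of 0.13 over 46 members, of which 16 repeat the same values for Gm26504/Snord116l1/Snord116l2. By the looser rule 2 (4.35%) were higher and 0 lower, against 2.3% and 3.61% of all probe sets. Snord12/Zfas1, a snoRNA with its non-coding host, read 5.71 and 6.04 in WT and 7.18 and 7.05 in KO, a difference of 1.24 (SE 0.20, adjusted p = 0.11). Of the 2 probe sets of Zfas1 alone, 1 differed by 1.16 (SE 0.19) and the other, brighter one by 0.25 (SE 0.15). Within the gene of the ribosomal protein Rpl13a, Snord34/Rpl13a differed by -0.34 (SE 0.11), while Snord33/Mir5121/Rpl13a differed by 0.73 (SE 0.20) and Snord32a/Rpl13a by 0.32 (SE 0.17). Entries that name the same host gene therefore gave differences of opposite sign.

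Several other named members stood out by size. The t-complex gene Tcte3, a dynein light chain gene, shared 3 probe sets with Gm3448 and Gm3417. They read 5.28 to 5.95 in WT and 7.04 to 7.79 in KO, with differences of 1.60 (SE 0.18, adjusted p = 0.073), 1.67 (SE 0.19, adjusted p = 0.073) and 2.08 (SE 0.27, adjusted p = 0.091). No WT array reached a KO array on any of the 3. Serpinb10/Serpinb2, protease inhibitor genes, read 3.12 and 3.04 in WT and 4.38 and 4.39 in KO, a difference of 1.31 (SE 0.17, adjusted p = 0.095). The probe set of Serpinb2 alone differed by -0.21 (SE 0.19). Gstm5/4933431E20Rik, a glutathione transferase gene head to head with a gene model, read 7.10 and 7.56 in WT and 8.79 and 8.80 in KO, a difference of 1.46 (SE 0.21, adjusted p = 0.10).

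Among the lower members named by smallest p, Bmpr2/Gm20272 was the brightest outside the immunoglobulin entries. Bmpr2 encodes the type II receptor of bone morphogenetic proteins. The entry read 11.06 and 11.43 in WT and 10.10 and 10.11 in KO, a difference of -1.14 (SE 0.16, adjusted p = 0.098). On its own probe set Bmpr2 differed by -1.01 (SE 0.14, adjusted p = 0.10), from 10.08 and 10.16 to 9.20 and 9.01. Zfp993/Zfp991, zinc finger genes, read 4.11 and 4.15 in WT and 3.31 and 2.82 in KO, a difference of -1.07 (SE 0.23, adjusted p = 0.14). A brighter probe set of the same entry, at a mean level of 6.99, had the opposite sign, with a difference of 0.21. The gene models 4933409K07Rik/Gm3893 had 11 probe sets with 9 different sets of values, and all 11 were lower in KO, with differences from -1.13 to -0.72.

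Globin and MHC entries varied by probe set. Globin genes encode the oxygen carrier of red cells and can appear in sorted cells through erythroid precursors or free RNA. The probe set of Hbb-b1/Hbb-b2/Hbb-bs that was bright read 8.70 and 9.59 in WT and 9.86 and 10.08 in KO, a difference of 0.83 (SE 0.31, adjusted p = 0.29). The other 2 probe sets of these genes read 1.62 to 3.18, with differences of -0.31 (SE 0.17) and 0.02 (SE 0.33). One Hba-a1/Hba-a2 probe set differed by 0.88 (SE 0.22, adjusted p = 0.17) and the other by -0.09 (SE 0.30). Of 9 listed erythroblast markers 5 had their own probe set, with a mean level of 3.89 and 3.92 in WT and 5.58 and 5.71 in KO. Of these, 1 passed the test, Rhag (difference 3.67, SE 0.26, adjusted p = 0.048). Ermap differed by 3.97 (SE 0.31, adjusted p = 0.052), Tspan33 by 1.33 (SE 0.19) and Epb42 by 0.68 (SE 0.19). Slc4a1 went the other way, from 4.15 and 4.38 in WT to 3.0 and 3.61 in KO (difference -0.96, SE 0.27). The part of erythroid cells in the globin values was not tested. The MHC class I entry H2-Q7/H2-Q9/H2-Q8 read 12.04 and 11.77 in WT and 11.89 and 11.84 in KO on 1 probe set, and differed by 0.71 (SE 0.33, adjusted p = 0.37) on another. None of 7 MHC members met the looser rule, and their median difference was 0.15. Of 37 single-gene MHC probe sets 4 (10.8%) met it as higher and 0 as lower, against 2.3% and 3.61% of all probe sets. Their median difference was 0.21.

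Members from families used outside the marrow were dim. Olfactory, vomeronasal and urinary protein entries had a median level of 2.50 over 87 members, and 1 met the looser rule, Olfr56/Ifi47, which also names an interferon-inducible gene. Germline families of the X and Y chromosomes, such as Sly, Ssty1 and Slxl1, had a median level of 1.84 over 101 members, with a median difference of 0.16 and 0 by the looser rule in either direction. Of 7 Hox members, homeobox genes that pattern the embryo and act in blood progenitors, 1 had a higher KO mean (46.3% of all probe sets) and the median difference was -0.12. The Hox members were not as dim, with a median level of 3.89 against 3.94 over all probe sets. At the levels of the olfactory, vomeronasal, urinary protein and germline entries, differences are compressed and understate any change.

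The same entry could read very differently on different probe sets. There were 262 entries with more than 1 probe set, covering 790 members, and 224 of them had differing values. The median range of level within an entry was 0.93, and it was over 2 in 66 entries. Differences of both signs occurred in 78. The widest range, 9.82, was in H2bc15/H2bc13/H2bc11/H2bc7, where 1 probe set averaged 11.69 and another 1.88. Conversely, 106 sets of 4 identical values were shared by 299 members, up to 16 members for 1 set. The 1814 members thus hold 1621 distinct measurements, and counts over members count some of them repeatedly.

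For 1142 members at least 1 gene of the entry also had a single-gene probe set. The sign of the difference was the same on both in 708, or 62.0%, and the median absolute gap was 0.24. Among the 116 of these that were at or above the median probe set and differed by at least 1.5-fold, 85 (73.3%) had the same sign. Across those 116 members, which share arrays and in part probes, the 2 differences correlated at r = 0.59, as a description. Of the 6 widest gaps among members at or above the median probe set, 4 were outside the immunoglobulin entries. Adgre5/Ddx39a, an adhesion receptor gene beside an RNA helicase gene, read 8.78 and 7.86 in WT and 7.18 and 7.11 in KO, a difference of -1.17 (SE 0.33), while Ddx39a alone differed by 0.49 (SE 0.17). Ddx49/Homer3 read 7.32 and 6.93 in WT and 8.13 and 8.06 in KO, a difference of 0.97 (SE 0.20), and Homer3 alone differed by -0.55 (SE 0.20). Rpl31/Tbc1d8/Rpl31-ps12 differed by 0.93 (SE 0.25) and Tbc1d8 alone by -0.50 (SE 0.31). Pcdhga10/Gm19774, with a protocadherin gene, differed by 0.44 (SE 0.19) at 10.89 and 11.39 in WT and 11.61 and 11.54 in KO, while Pcdhga10 alone differed by -1.04 (SE 0.20). In each of these 1 gene of the entry had a probe set of its own.

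The labels were checked on single-gene probe sets. Ncoa3, the targeted gene, read 7.76 and 7.05 in WT and 5.35 and 5.09 in KO, a difference of -2.19 (SE 0.29, adjusted p = 0.095). Of 7 LSK markers 5 had their own probe set, all above the median probe set, and their median difference was -0.60, with 2 of the 5 lower by the looser rule and none past the adjusted threshold. Kit read 10.33 and 9.65 in WT and 9.43 and 9.34 in KO, a difference of -0.60 (SE 0.25). Flt3 differed by -1.21 (SE 0.29, adjusted p = 0.16) and Cd34 by -0.68 (SE 0.12, adjusted p = 0.12), while Slamf1 and Cd48 differed by 0.18 and 0.14. Sca1, encoded by Ly6a, had none. Neutrophil markers had a median difference of 0.84 over 8 genes, mast cell and basophil markers 0.78 over 4 and erythroblast markers 1.33 over 5. Megakaryocyte markers had a median of 0.13 over 3, stromal and endothelial ones 0.01 over 4, and T and NK cell markers 0.06 over 6. B cell markers had a median of -0.18 over 5. The part of other cells in the members' values was not tested. Across members, the SD of log2 differences was 0.359 between the WT arrays, 0.262 between the KO arrays and 0.425 to 0.51 between arrays of different genotype.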

How the data were processed

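Expression was measured on 4 Affymetrix arrays, 1 per sample. The values deposited by the authors are on the log2 scale, in 1 table. RMA (background correction, normalization across arrays and summary of probes) and Affymetrix Expression Console 1.2.1 are named per the submitters' processing notes, without settings. The log2 scale was taken from the values, which run from 0.375 to 12.8. Neither filters nor a genome build are stated in those notes or the labels, and positions of probe sets were not used. RMA compresses dim and very bright values, so their fold changes are understated. Members came from the platform's annotation, which can be old: every probe set with more than 1 gene symbol or gene identifier. All had both. Of 2732 gene identifiers, 2640 were found in RefSeq GRCm38.p6, which also gave the sequences.

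The genotypes were compared by limma 3.58.1 under R 4.3.3, in a linear model with an intensity trend over all 41345 probe sets, two-sided, with Benjamini-Hochberg adjustment and a threshold of 0.05. No filter was applied. Errors are moderated standard errors (SE). The number of arrays, 2 per genotype, limits the precision. The model was tested on simulated data. Promoter windows were aligned with Biopython 1.88. Members, gene lists and tests were chosen with earlier results of these data known. Named members are those past the threshold, filled to 8 per direction by smallest p, up to 4 of smallest p per class and gene list, the 6 brightest and the 6 with the widest gap to single-gene probe sets at or above the median probe set. Others named, such as further probe sets of an entry, further members of a list and the head-to-head pairs, were chosen after their values were seen. The pattern of names counted as histone genes was widened after the annotation was read, and a motif search and gene orientation were added after seeing the data. Alternatives were a replicate block, quantile normalization, a filter at the median, annotated probe sets only, no intensity trend, array weights, leaving out each array, a narrower definition of members and averaging of repeated entries.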

Additional observations from a re-analysis of the deposited data

How the results depend on the processing

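Counts of members past the adjusted threshold, higher and lower, were 0 and 3 with all arrays. The lower count was 0 with the replicate block and 0 without the intensity trend, against 2 and 16 over all probe sets of those fits. The higher count was 4 at or above the median probe set and 9 with annotated probe sets only. Over all probe sets of those fits it was 65 and 101. By the looser rule (64 higher, 38 lower), the higher count was 42 with the replicate block, 100 with annotated probe sets only and 42 for members with at least 2 named symbols. The lower count was 23 at or above the median probe set, 17 with repeated entries averaged and 9 for members with at least 2 named symbols. Over the fits that left out 1 array, the adjusted counts ranged from 0 to 85 higher and 0 to 15 lower, and the looser counts from 7 to 145 higher and 5 to 33 lower. The highest of each came without WT replicate 2, and the lone array of a genotype was assumed to vary like the others. The median over members (0.05) was 0.10 after quantile normalization, which moved the median of all probe sets from -0.03 to 0.03, and 0.10 at or above the median probe set. It ranged from 0.02 to 0.07 over the left-out arrays. Among classes, quantile normalization gave 0.09 for 1 named gene with gene models and 0.19 for other mixtures of named genes. At or above the median probe set the latter was 0.18, a small RNA with another gene -0.05, and small RNAs only 0.47 over 27 members. For other mixtures the median ranged from 0.10 to 0.13 over left-out arrays, and for the other classes it lay between -0.32 and 0.07. The replicate number was not taken to pair samples, and deviations of same-numbered arrays correlated at 0.0827 across probe sets. The labels do not say whether same-numbered samples were prepared together, and this correlation cannot settle it. Among 87 members named by the rule, 7 changed sign under some setting: Rpl31/Rpl31-ps12 to 0.06 after quantile normalization and 0.02 without WT replicate 2 (range -0.06 to 0.02 over left-out arrays), both probe sets of H2ac18/H2ac19/H2ac20 to 0.00 without WT replicate 2 (up to 0.12 without WT replicate 1), Rpl35a/Ino80 to -0.04 and Hoxa11/Hoxa11os to 0.01 without WT replicate 1 (down to -0.27 without WT replicate 2), and Mir10a/Hoxb4 to -0.12 and H2-Oa/BC051537 to -0.01 without KO replicate 2 (0.45 and 0.32 without KO replicate 1). The cause of these changes was not tested. Taking members by the gene symbol entry alone gave the same 1814 probe sets.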
